A study of Homo sapiens with 2 samples.

Results

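Transcripts of the EGR, KLF and IER early genes were read on 2 arrays of the Hodgkin's lymphoma (HL) cell line L-428, 1 from cells carrying a control vector and 1 from cells after knock-down of DUSP5. The members were chosen by gene name: EGR1, EGR2, EGR3, EGR4, KLF2, KLF4, KLF6, KLF10, IER2 and IER3, each at all probe sets whose only gene symbol was that of the member. The annotation used here assigned 14 of the 19065 probe sets with 1 symbol to 9 of the 10 members. EGR2 was not analysed here because no probe set had it as the only symbol. Both groups were L-428 cells grown under the same standard conditions. The control cells were transfected with pcDNA6.2-GW/EmGFP-miR-neg, which the study also calls an empty vector, and the knock-down cells with pcDNA6.2-GW/EmGFP-miR-DUSP5, whose artificial microRNA is directed against DUSP5 and transcribed together with the green fluorescent marker EmGFP. All cells were therefore transfected, both groups came from 1 cell line, and the time between transfection and harvest was not given in the sources used here.

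Immediate early genes are transcribed within minutes of a signal, without new protein synthesis, and many encode transcription factors. In the textbook route from growth factor or antigen receptors, the kinase ERK enters the nucleus and phosphorylates ELK1 and related factors, which sit with serum response factor (SRF) on CArG boxes in the promoters of genes such as EGR1 and FOS. Their mRNAs often carry AU-rich elements and decay quickly. DUSP5 is a nuclear phosphatase that removes the activating phosphates from ERK, and it is itself induced by ERK. The arrays asked which transcripts of HL cells differ when DUSP5 is knocked down. EGR proteins bind a GC-rich site through zinc fingers, KLF proteins bind GC and CACCC boxes through related zinc fingers, and IER2 and IER3 are small nuclear or membrane-associated early response proteins without zinc fingers.

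The promoters of the members differ in the motifs through which this route works. The RefSeq promoter table (GRCh38.p14) held 9 transcription starts of 7 members, EGR1, EGR2 with 3 starts, EGR4, KLF2, KLF4, KLF6 and IER2. The 250 bases upstream of each start were searched on both strands for exact matches to each motif. A CArG box was found upstream of 2 of the 7 genes, EGR1 and EGR2. Counted by start, it was at 2 of the 9 member starts and in 1.16% of the 35116 promoters in the table. The half-site TGACG of the cyclic AMP response element, bound by CREB and ATF factors, was found in 5 of the 7 genes (EGR1, EGR2, EGR4, KLF4 and IER2). It was at 5 of the 9 member starts and in 21.2% of all promoters. The full element TGACGTCA, which contains it, was in none of the 7 genes and in 1.65% of all promoters. The following stretches show these motifs for the EGR genes and IER2, 5′ to 3′ on the strand of the gene, with matches in capitals (CGTCA is TGACG read on the opposite strand).
EGR1, chr5:138465339-138465422, plus strand: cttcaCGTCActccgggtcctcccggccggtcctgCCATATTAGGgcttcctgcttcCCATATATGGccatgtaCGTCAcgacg
EGR2, chr10:62816413-62816442, minus strand: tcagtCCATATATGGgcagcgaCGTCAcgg
EGR4, chr2:73293648-73293730, minus strand: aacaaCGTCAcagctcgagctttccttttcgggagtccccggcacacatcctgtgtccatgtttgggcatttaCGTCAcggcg
IER2, chr19:13150261-13150285, plus strand: cccccgccccCGTCAcgccaccatc

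In EGR1 the CArG boxes lay at positions -105 to -96 and -83 to -74 relative to the start, flanked by a TGACG half-site on either side. The EGR2 stretch, shown because it was the only other member start with a CArG box, had its box at -71 to -62 and a half-site at -54 to -50. The EGR4 and IER2 stretches held half-sites and no exact match to a CArG box in these windows. CArG-like elements with a mismatch were not searched for. The EGR site GCGNGGGCG, the sequence that EGR proteins themselves bind, was found upstream of 4 of the 7 genes (EGR1, KLF2, KLF4 and KLF6). That made 4 of the 9 member starts, beside 8.41% of all promoters. It is shown in capitals for KLF6 and KLF2, chosen for their lower signals after knock-down, KLF2 at a dim probe set. EGR1, with higher signals, and KLF4, too dim for a direction, had the site as well. KLF10 had no promoter in the table, and a link between the site and the signals was not tested.
KLF6, chr10:3785255-3785284, minus strand: ggggagccagGCGGGGGCGgagggggaggc
KLF2, chr19:16324576-16324600, plus strand: ggGCGGGGGCGgggcccgggagagg

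The EGR sites of KLF2, KLF4 and KLF6 overlapped matches to the SP1 site GGGCGG. The SP1 site was present in 5 of the 7 genes, at 6 of the 9 member starts, and in 42.6% of all promoters. The member promoters had a GC content of 54.8% to 80%, against a median of 58% over all promoters. No match to the AP-1 site TGANTCA, the TATA box TATAAA or the FOXO site GTAAACA was found in the windows of the 7 genes, and these were in 6.57%, 10.7% and 2.98% of all promoters. An NF-kB site was matched upstream of EGR2 and EGR4, at 2 of the 9 member starts, and in 9.96% of all promoters. A match says only that the letters are present, not that a factor was bound in these cells.

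**Figure D1:**
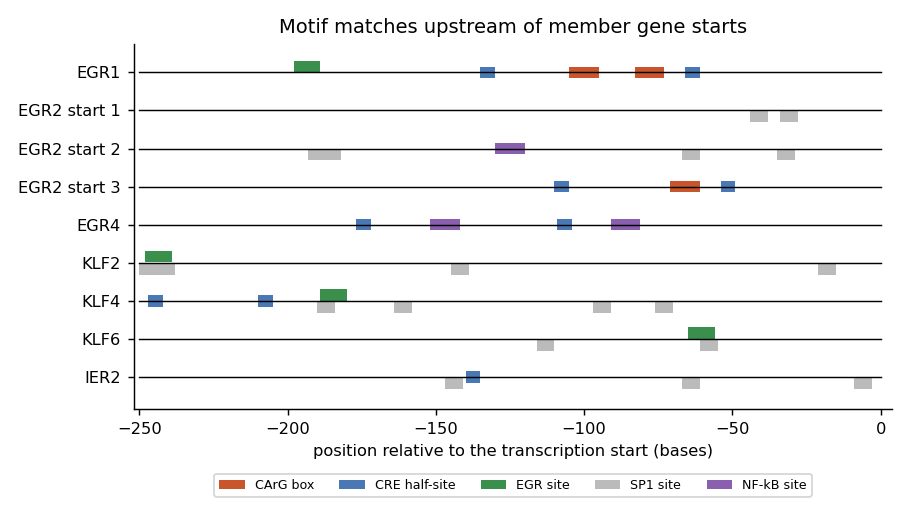
Positions of motif matches in the 250 bases upstream of each of the 9 member starts, with 1 line per start and the transcription start at 0 on the horizontal axis (bases); colours give the motif, with EGR sites drawn above and SP1 sites below the line. CArG boxes appear only at EGR1 and at the third EGR2 start, and EGR sites at EGR1, KLF2, KLF4 and KLF6.

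The values are MAS5 signal intensities, 1 number per probe set and array on a linear scale, with each array scaled by the authors to a target intensity of 500. Differences are given as the log2 ratio of the knock-down signal over the control signal. With 1 array per group there was no replicate, so no difference could be tested against the spread between cultures, and no p-value is given. The only error at hand was how far different probe sets for 1 gene disagreed when their signals were alike, given as an SD of the log2 ratio. It fell with brightness, with 1.19 below a mean signal of 100, 0.73 up to 200, 0.41 up to 500, 0.36 up to 1000, 0.30 up to 3000 and 0.26 for brighter probe sets. A probe set with a mean signal of at least 200 is called measured, and dim otherwise, and a difference of at least 1.5-fold, a log2 ratio of 0.58, is called higher or lower. The arrays read pooled cells, so fewer cells with a transcript and less transcript per cell cannot be told apart.

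The targeted gene was lower on the knock-down array, with a DUSP5 signal of 628 in the control and 368 after knock-down (log2 ratio -0.77, SD between probe sets 0.41). Signals on the arrays correlated with r = 0.935 over all probe sets on the log2 scale, and their medians were 161 and 164. The reference genes did not stay level: the 3 GAPDH probe sets had log2 ratios of 0.94 to 1.12, the ACTB probe sets of 0.76 and 0.80, and the median over 18 probe sets of the bacterial hybridisation controls was 0.30. Scaling to GAPDH would therefore lower every log2 ratio by 0.98, and scaling to the hybridisation controls by 0.30. Of the Hodgkin cell markers, 6 of 7 were measured, among them TNFRSF8 (CD30) at 1724 and 3618. FUT4 (CD15) went in the other direction at 756 and 317, although its other probe set gave a log2 ratio of 0.35. The summed signal of the Hodgkin cell markers was 19719 in the control and 29444 after knock-down. The summed signals of T cell markers (260.0 and 437) and monocyte markers (239.5 and 331) came from probe sets that were all dim. PAX5, at 268 and 211, was the only measured B cell marker of the 5 with a probe set, and the summed B cell marker signal was 663 and 587. The part of these shifts in the results for the members was not tested.

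Among the members, the clearest difference was the lower signal of the Krüppel-like factor KLF10 after knock-down. The bright pair of KLF6 probe sets was lower as well, but the third measured KLF6 probe set was higher. EGR1, IER2 and the brighter EGR4 probe set had somewhat higher signals, whereas the dim EGR4 probe set was lower. IER3 was close to its control value. In counts of genes, each gene is represented by its brightest probe set. Of the 6 measured member genes, 0 were at least 1.5-fold higher, against a background of 15.6% of all 6301 measured genes. Of the same 6, 2 were at least 1.5-fold lower, KLF6 and KLF10, against a background of 19.0%. With 6 genes, neither count stands clearly apart from its background. Relative to GAPDH, 4 of the 6 were lower, where 75.4% of all measured genes were. When probe sets were averaged per gene, 1 was lower (KLF10) and 1 higher (EGR1) of 5, where 17.9% and 15.6% of all genes were. The median log2 ratio was 0.11 over the 6 genes and 0.01 over all measured genes, with 3 members above and 3 below 0. EGR3, KLF2 and KLF4 were dim at all their probe sets. The split between higher and lower members is shaped by the filter on mean signal: EGR1 and EGR4 were below 200 in the control and passed through their higher knock-down signals, whereas KLF2, at 184 in the control and lower after knock-down, did not pass. These counts and the median are therefore descriptions and support no direction for the set.

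**Figure D2:**
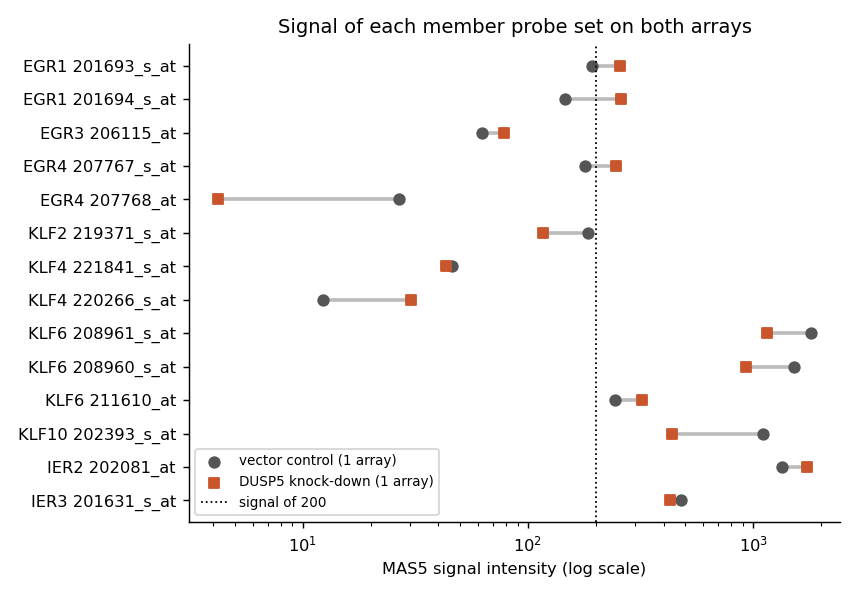
MAS5 signal intensity (log scale) of the 14 member probe sets on the control array (grey circles) and the knock-down array (red squares), 1 array each, with a dotted line at a signal of 200. KLF10 and the pair of bright KLF6 probe sets have the squares to the left of the circles, whereas the probe sets of EGR1 and IER2 have them to the right.

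EGR1 encodes the zinc finger factor that couples ERK activity to transcription in many cell types. Its probe set 201693_s_at had a signal of 192.5 in the control and 255 after knock-down, a log2 ratio of 0.41 (SD 0.41). The second probe set, 201694_s_at, had 145.5 and 260.0, a log2 ratio of 0.84 (SD 0.41) or 1.79-fold. This was the only measured member probe set at least 1.5-fold higher, where 15.9% of the 10184 measured probe sets were. Both EGR1 probe sets were below 200 on the control array and counted as measured through the knock-down array, so nothing is read from that call. The 2 EGR1 ratios differed by 0.74 times their combined SD, so both probe sets gave a higher signal after knock-down with a difference between them that was within the spread of probe sets. Relative to the hybridisation controls the second ratio was 0.54, short of 1.5-fold, and relative to GAPDH both turned negative, at -0.57 and -0.14.

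EGR4 is the EGR protein best known from neurons and T cells. Its probe set 207767_s_at had signals of 179 and 245, a log2 ratio of 0.45 (SD 0.41), which turned to -0.53 relative to GAPDH. The other EGR4 probe set, 207768_at, was very dim at 26.7 and 4.22, a log2 ratio of -2.66 (SD 1.19). The EGR4 probe sets thus gave opposite signs, 2.48 combined SD apart, and the dim one shrank to -0.70 when 32 was added to each signal. EGR3, which works with EGR2 in limiting the activation of lymphocytes, was dim at 62.5 and 77.9, a log2 ratio of 0.32 that was a fraction of its SD of 1.19 and turned to -0.66 relative to GAPDH. The EGR genes with a value were therefore near or below the measured range on both arrays, and the upward call of the single EGR1 probe set was lost under 2 scalings, to the hybridisation controls and to GAPDH.

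KLF10, also known as TIEG1, is a repressor first described as an early gene of the TGF-beta response. Its only probe set, 202393_s_at, had a signal of 1107 in the control and 435 after knock-down, which left 39.3% of the control signal. The log2 ratio was -1.35 (SD 0.36), 3.70 times the SD between probe sets of that signal. KLF10 ranked 194th from the lowest of the 6301 measured genes, so that 3.08% of genes had a ratio as low, and 3.63% of the 2671 probe sets with a mean signal of 500 to 1000 did. It was the only member gene at least 2-fold lower at a measured signal, and its ratio lay between -2.32 and -1.28 under 6 other scalings.

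KLF6 is a widely expressed early gene and tumour suppressor with a splice variant of opposite activity. Its brightest probe set, 208961_s_at, had signals of 1803 and 1151, a log2 ratio of -0.65 (SD 0.30). The next, 208960_s_at, had 1519 and 929, a log2 ratio of -0.71 (SD 0.30). These neighbours left 63.8% and 61.2% of the control signal and differed by 0.14 combined SD. The third probe set, 211610_at, went the other way, with 243 and 321, a log2 ratio of 0.40 (SD 0.41), and stood 2.05 and 2.17 combined SD from the bright pair. Which KLF6 transcripts each probe set reads was not analysed here. Of measured genes, 16.5% had a ratio as low as the brightest KLF6 probe set.

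KLF2 keeps resting lymphocytes quiescent and controls their homing. Its probe set 219371_s_at was dim at 184 and 117, a log2 ratio of -0.65 (SD 0.73) with 63.6% of the control signal left. That ratio was like the one of KLF6 in size but within 1 SD for its signal, and 15.3% of the 3253 probe sets with a mean signal of 100 to 200 were as low. KLF4, a factor of differentiation and quiescence that is silenced in many B cell lymphomas, was dim at 221841_s_at with 46.1 and 43.1 (log2 ratio -0.10, SD 1.19). At the other KLF4 probe set, 220266_s_at, signals were 12.3 and 30.1 (log2 ratio 1.29, SD 1.19), and the pair differed by 0.83 combined SD. Both KLF4 probe sets were therefore too dim for a direction to be read.

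IER2 is a nuclear early response protein induced by growth factors. Its probe set 202081_at had signals of 1340 and 1741, a log2 ratio of 0.38 (SD 0.30), or 1.30-fold higher, which turned to -0.60 relative to GAPDH. Of measured genes, 25.4% had a ratio as high. IER3, or IEX-1, is an NF-kB and p53 target that modulates apoptosis and binds ERK. Its probe set 201631_s_at had 478 and 426, a log2 ratio of -0.17 (SD 0.41), which left 89.0% of the control signal. IER3 thus differed by less than the SD between probe sets, and IER2 by little more than 1 SD.

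**Figure D3:**
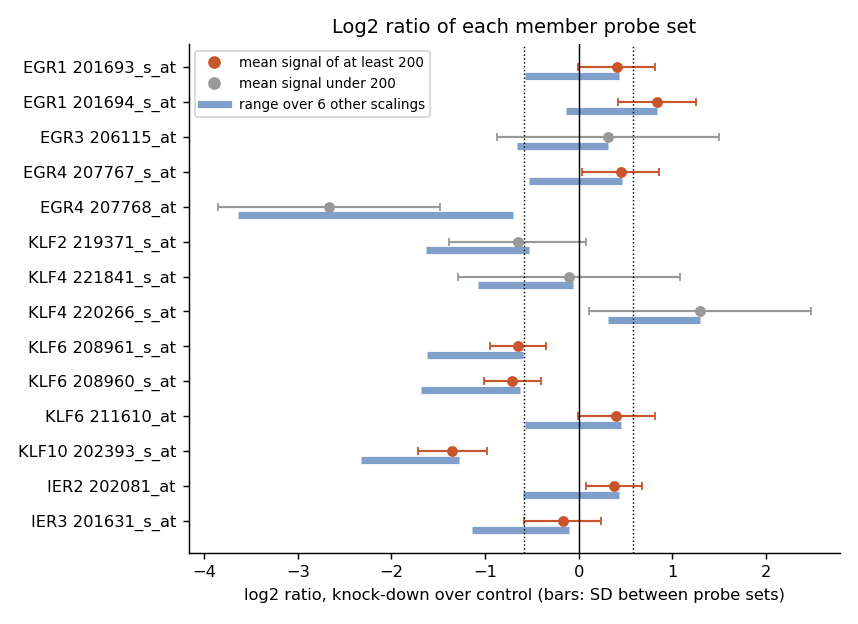
Log2 ratio (knock-down over control) of each of the 14 member probe sets, as a point with a bar of 1 SD between probe sets at that signal; blue bars below give the range under 6 other scalings, dotted lines mark 1.5-fold, and grey points are dim. The blue bars stay below 0 for every probe set with a ratio below 0, KLF10 and the bright KLF6 pair among them. Those of both EGR1 probe sets, EGR3, EGR4 207767_s_at, KLF6 211610_at and IER2 cross 0.

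At their brightest probe sets, EGR1, EGR3 and EGR4 had ratios above 0 and KLF2, KLF4, KLF6 and KLF10 below 0. EGR3, KLF2 and KLF4 were dim, and other probe sets of EGR4, KLF4 and KLF6 had the opposite sign. IER2 was above 0 and IER3 below. Neither a movement of a family as a block nor its absence is therefore read. Over the 9 measured member probe sets, 3 were at least 1.5-fold lower (the bright KLF6 pair and KLF10), against 18.8% of all measured probe sets. Over all 14, measured or dim, 7 ratios were above 0 and 7 below. In the whole set, the share of ratios beyond 1.5-fold depended on signal: below a mean signal of 100, 39.3% of probe sets were higher and 19.6% lower, and from 1000 to 3000, where KLF6 and IER2 lay, 15.3% were higher and 20.5% lower. Pairs of probe sets for 1 gene had the same sign in 56.5% of cases below 100 and in 77.7% of cases from 1000 to 3000.

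**Figure D4:**
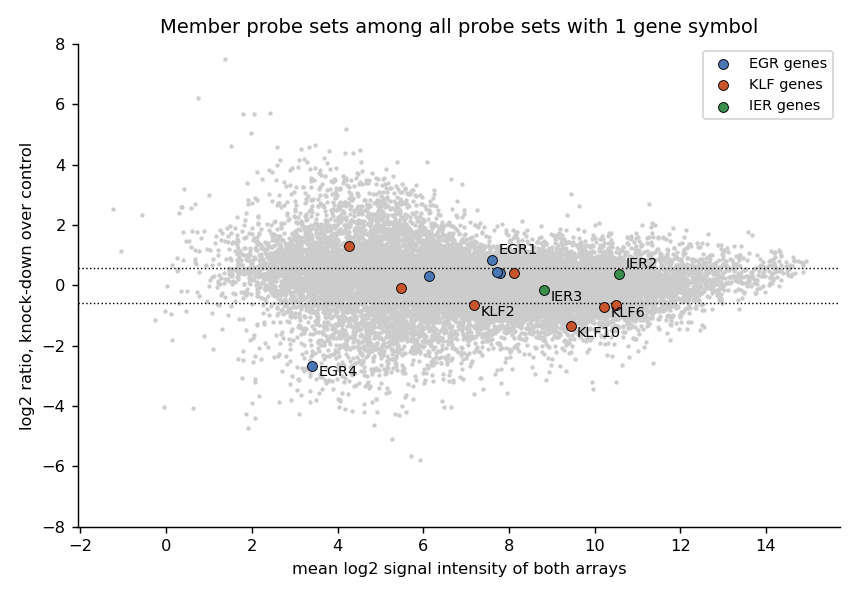
Log2 ratio (knock-down over control, vertical axis) by mean log2 signal intensity of the arrays (horizontal axis) for all 19065 probe sets with 1 symbol (grey points), with the 14 member probe sets coloured by family and dotted lines at 1.5-fold. Ratios spread widely at low signals, where EGR3, KLF2, KLF4 and one EGR4 probe set lie, and KLF10 lies low in the narrower part of the cloud.

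The other KLF and SP factors, which share the zinc finger fold and much of the binding site, had 7 of 17 listed genes measured. Of these, 0 were higher and 2 lower, beside 15.6% and 19.0% of all measured genes, with a median log2 ratio of -0.45. Relative to the hybridisation controls 5 of 7 were lower, and relative to GAPDH 7 of 7, where 32.6% and 75.4% of all measured genes were. KLF7 had signals of 455 and 260.3 (log2 ratio -0.80, SD 0.41). SP2 had 797 and 456 (-0.80, SD 0.36), although a dim SP2 probe set gave 0.29. SP1, the founding member of the SP family, had 385 and 265 (-0.54). KLF11, the closest relative of KLF10, had 677 and 517 (-0.39), SP3 had 1254 and 1059 (-0.24) and KLF3 had 349 and 441 (0.34). The median of this list is not set against that of the 6 members, because EGR1 and EGR4 passed the filter through their higher knock-down signals.

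Other early response genes outside the EGR, KLF and IER members were measured for 18 of 40 listed genes. Of these, 9 were lower and 2 higher, beside 19.0% and 15.6% of all measured genes, with a median log2 ratio of -0.51. This list, like the other lists here, was written with earlier results of these data known, so its shares are descriptions only. JUN, the AP-1 subunit, had the lowest ratio, with 6449 in the control and 1083 after knock-down (-2.57, SD 0.26), and its next brightest probe sets gave -3.15 and -1.34. PHLDA1, a pleckstrin homology protein, had 1338 and 661 (-1.02), although its next probe sets gave -0.32 and -0.41. TRIB1, a pseudokinase, had 1842 and 920.5 (-1.001). In the other direction lay ZFP36, which destabilises AU-rich mRNAs (442 and 697, 0.66), MYC (1382 and 2099, 0.60) and JUNB (1571 and 1785, 0.18). IER5, named here after its values were seen because it belongs to the IER family, had 2102 and 1276 (-0.72, SD 0.30). The log2 ratios of IER2 and IER3 were 0.38 and -0.17. FOS, the classic CArG box gene, was dim at 9.17 and 10.9. When probe sets were averaged per gene, 5 of 17 early response genes were lower, beside 17.9% of all genes so averaged. Relative to GAPDH, 16 of 18 were lower and 0 higher, where 75.4% and 0.778% of all measured genes were.

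**Figure D5:**
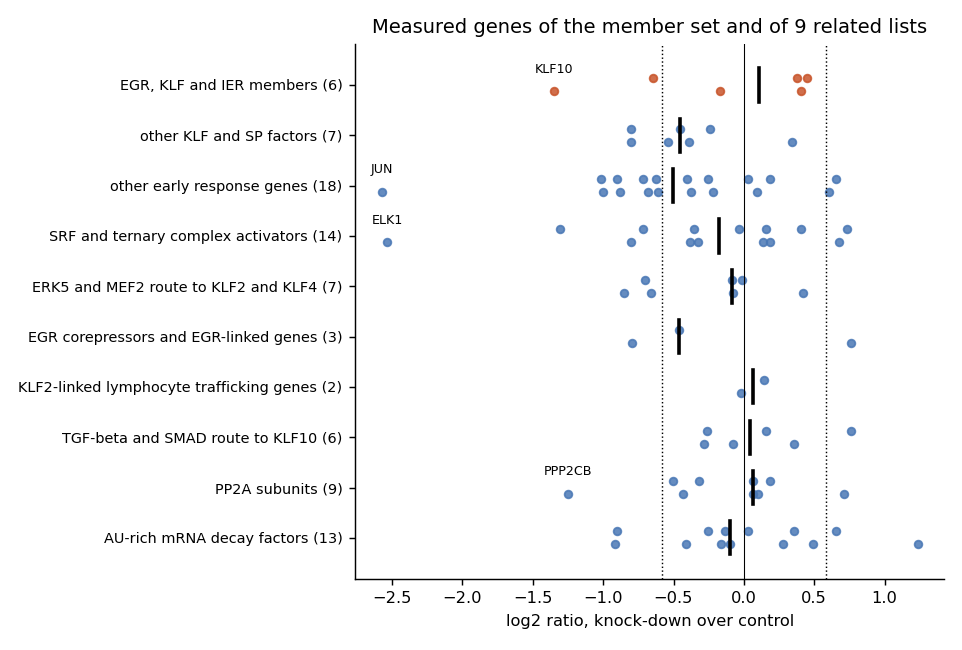
Log2 ratio (knock-down over control) of the measured genes in the member set (top row, red) and in 9 related gene lists (blue), 1 point per gene at its brightest probe set, with black bars at the medians, the number of measured genes in parentheses and dotted lines at 1.5-fold. The early response list leans to the left with a median of -0.51, and the 6 members spread to both sides of 0. The lists were written with earlier results of these data known.

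The activators upstream of CArG boxes, SRF with its ternary complex partners and the kinases that act on them, were measured for 14 of 18 genes, with 2 higher, 4 lower (15.6% and 19.0% of all measured genes) and a median of -0.18. Of the 14, 0 were higher and 7 lower relative to the hybridisation controls (6.16% and 32.6% of all), and 0 higher and 11 lower relative to GAPDH (0.778% and 75.4% of all). ELK1, the ERK target that binds beside SRF, had 576 and 99.3 (-2.54, SD 0.41) at its brightest probe set, but -0.55 at the next. RPS6KA3, the ERK-activated kinase RSK2, had 753 and 304 (-1.31). The SRF coactivator MRTFA had 338 and 194 (-0.80), with 0.71 at a dim probe set. RPS6KA1 (RSK1), with 480.3 and 800 (0.74), and RPS6KA4 (MSK2), with 359 and 574 (0.67), were higher, and CREB1, which binds the cyclic AMP response element, had 573 and 759 (0.40), with 0.74 and 1.15 at its next probe sets.

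The ERK5 and MEF2 route, which induces KLF2 and KLF4 in several cell types, was measured for 7 of 12 genes, with 0 higher, 3 lower (15.6% and 19.0% of all measured genes) and a median of -0.09. Relative to GAPDH, 6 of the 7 were lower, where 75.4% of all measured genes were. MEF2A had 1597 and 884 (-0.85, SD 0.30), with -1.82 and -2.11 at its other probe sets. The kinases MAP3K2 (315 and 193, -0.70) and MAP2K5 (521 and 330, -0.66) were lower as well, although the next MAP2K5 probe set, which was dim, gave 0.25. MAPK7, which is ERK5 itself, had 200.4 and 269 (0.42), MEF2C had 503 and 498 (-0.02), and the MEF2 repressor HDAC5 had 376 and 356 (-0.08). Of genes linked to KLF2 in lymphocyte trafficking, 2 of 6 were measured, S1PR1 at 682 and 753 (0.14) and CCR7 at 7768 and 7675 (-0.02), and neither passed 1.5-fold.

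EGR corepressors and genes linked to EGR proteins were measured for 3 of 8 genes, with 1 higher and 1 lower (15.6% and 19.0% of all measured genes). NAB1, which binds EGR proteins and restrains them, had 1193 and 865 (-0.46, SD 0.30), with -0.10 at its next probe set. CD44, an adhesion receptor with an EGR1-responsive promoter, had 1168 and 673 (-0.80), with -1.98 and -2.21 at its next probe sets. TGFB1 had 255 and 433 (0.76, SD 0.41). In the TGF-beta and SMAD route, the textbook inducer of KLF10, 6 of 10 genes were measured, with 1 higher (TGFB1), 0 lower (15.6% and 19.0% of all) and a median of 0.04. Relative to GAPDH, 5 of the 6 were lower, where 75.4% of all measured genes were. The receptor TGFBR2 had 188 and 242 (0.36), the inhibitory SMAD7 had 200.2 and 223 (0.16), and the corepressor SKIL had 325 and 267 (-0.29). SMAD4, the common partner of receptor-activated SMADs, had 508 and 423 (-0.26), and SMAD2 had 2441 and 2319 (-0.07) at its brightest probe set but -0.70 at the next.

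Genes with the promoter motifs of the members were read across the whole array. Of 89 measured genes with a CArG box in the same window, 14.6% were at least 1.5-fold higher and 23.6% lower, with a median log2 ratio of -0.14. Over all 5334 measured genes with a promoter in the table the shares were 15.8% and 18.6%, and the median was 0.02. The 944 measured genes with an EGR site had 14.2% higher and 20.1% lower, and the 2055 genes with a TGACG half-site had 14.2% higher and 20.1% lower. EGR1, with its pair of CArG boxes and a log2 ratio of 0.41, counted as measured only through its knock-down signal. Its place among the CArG box genes is therefore not read. The median of the EGR site genes was near 0 (-0.00021), and both KLF6 (-0.65) and EGR1 have that site. No link between a motif and a ratio was tested. These shares are descriptions of 2 arrays, and the list of CArG box genes was added after the data had been seen.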

How the data were processed

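Total RNA of L-428 cells was hybridised to Affymetrix HG_133A arrays, 1 per condition. The deposited values are intensities that the authors computed with the MAS5 algorithm and scaled to a target of 500, on a linear scale. Detection calls were not used here, and MAS5 subtracts mismatch signals, which makes dim values noisy. The log2 ratio of the deposited signals (knock-down over control) was computed here for probe sets with 1 gene symbol in the platform annotation of 2016. Of 22283 probe sets, 68 were controls, 19065 had 1 symbol, 1043 several and 2107 none. Older symbols (CYR61, CTGF, MKL1, MKL2, TTC37) were read as current ones through RefSeq. Genes were represented by their brightest probe set and counted from a mean of 200.

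The SD between probe sets came from differences within pairs of 1 gene whose probe sets lay in the same signal band. The scripts were tested on simulated data. The members, the 9 pathway lists and the marker lists were chosen with earlier results of these data known. All member probe sets were named, and, for each list, the 3 measured genes at either end of the ratios, or fewer in short lists. No test was possible with 1 array per condition, and the number of arrays limits the precision. Alternatives were quantile normalization, median centring, a lowess trend (span 0.3), an offset of 32, GAPDH or the hybridisation controls as reference, other signal filters (none or 500), the mean of all probe sets, no _s_at and _x_at probe sets, and a 2-fold threshold. A comparison of protein sequences was planned and not run. Python 3.11.15, numpy 2.4.6, pandas 2.3.3, statsmodels 0.14.6 and matplotlib 3.10.9 were used.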

Additional observations from a re-analysis of the deposited data

How the results depend on the processing

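No paired analysis was possible because there was no second array of either condition. All member probe sets with a negative log2 ratio, KLF10 and the bright KLF6 pair among them, kept it negative under all 6 other scalings. Scaling to GAPDH or to the hybridisation controls lowers every ratio, so neither could turn a negative ratio positive. Relative to GAPDH, the 201694_s_at probe set of EGR1 turned to -0.14, 4 member genes were lower, and of the other early response genes 0 were higher and 16 lower, where 0.778% of all genes were higher and 75.4% lower. Relative to the hybridisation controls, 0 early response genes were higher (6.16% of all genes). With no filter on low signal, 7 of 38 early response genes were higher (24.6% of all genes). With the mean of all probe sets, 1 member gene was higher (EGR1) and 1 lower (KLF10) of 5, and KLF6 had -0.32. Of the other early response genes, 5 of 17 were lower. In that setting, 15.6% of all genes were higher and 17.9% lower. Without _s_at and _x_at probe sets, 0 of 2 measured member genes were lower, and KLF10 had no probe set left. The log2 ratio of KLF6 was then 0.40, so its sign depended on the probe set taken. Of 9 early response genes, 1 was then higher and 6 lower, where 14.5% of all genes were higher and 21.3% lower. At 2-fold, 1 member gene and 3 early response genes were lower and 0 early response genes higher, where 7.30% of all genes were lower and 4.38% higher. Of the single probe set ratios under other scalings, 73 moved by less than the SD between probe sets, 10 by more, and 1 called ratio changed sign. The cause of these moves was not tested. Dim signals limit EGR3, KLF2, KLF4 and one EGR4 probe set, and the knock-down and any difference between the cultures or array preparations cannot be told apart.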

Other observations

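PP2A, a phosphatase complex that acts on several kinases of the ERK route, was measured for 9 of 10 listed subunits, with 1 higher, 1 lower (15.6% and 19.0% of all measured genes) and a median log2 ratio of 0.06. The scaffold subunit PPP2R1A had signals of 1171 in the control and 1919 after knock-down (0.71, SD 0.30). The catalytic subunit PPP2CB had 1942 and 815 (-1.25, SD 0.30), although its other probe set, which was dim, gave 0.66. PPP2R5D (495 and 563, 0.18), PPP2R1B (482 and 516.5, 0.10), PPP2R2A (2107 and 1561, -0.43) and PPP2R5A (759 and 536, -0.50) did not pass 1.5-fold at their brightest probe sets, although a PPP2R1B probe set of similar brightness gave 1.15.

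Factors that bind or degrade AU-rich mRNAs, the class to which many early transcripts belong, were measured for 13 of 14 listed genes, with 2 higher, 2 lower (15.6% and 19.0% of all) and a median of -0.10. HNRNPD (AUF1), which binds AU-rich elements, had 2419 and 5695 (1.24, SD 0.26), with 1.02 and 0.98 at its next probe sets. ZFP36, also counted among the early response genes, had 442 and 697 (0.66). SKIC3, a helper of the RNA exosome, had 334 and 470.4 (0.49). The decapping enzyme DCP2 had 1358 and 719 (-0.92, SD 0.30), and the deadenylase subunit CNOT8 had 1274 and 959 (-0.41), with 0.43 at its next probe set. ZFP36L1, a relative of ZFP36 in the same 2 lists, had 477 and 255 (-0.90, SD 0.41). Its next probe sets were dim and disagreed in sign, with -1.74 and 3.61.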
